A study of Homo sapiens with 3 samples.

Results

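At day 2 of the culture, 1760 cells showed at least 2 captured transcripts of E-cadherin or N-cadherin and 0 of the other, and these cells are compared here. The CDH1-only class held the cells with at least 2 UMIs (unique molecular identifiers, counts of captured transcripts) of CDH1 and 0 of CDH2. The CDH2-only class held those with at least 2 UMIs of CDH2 and 0 of CDH1. A count of 0 means that the transcript was not detected in a cell, not that it was absent. Of 7892 kept day 2 cells, 585 were CDH1-only (7.41%, 95% binomial interval 6.84 to 8.01) and 1175 were CDH2-only (14.9%, 14.1 to 15.7). The series held 18830 kept cells in 3 droplet-based 10x single-cell libraries, taken at days 1, 2 and 3. The cells were of the embryonic stem cell line UCLA1, established from a human embryo, and grew as the GiMO culture covered by Geltrex, which is a basement membrane preparation. The 3 groups shared the line and the culture and differed by day. The sample labels did not say whether or when BMP4, which the series title names, was added. Each day was 1 library of 1 line, so no difference between classes or days has a replicate check, and all values below describe these libraries.

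CDH1 (ENSG00000039068, hg38 chr16:68737292-68835537, plus strand) encodes E-cadherin, the adhesion molecule of epithelial adherens junctions. CDH2 (ENSG00000170558, chr18:27932879-28177946, minus strand) encodes N-cadherin, found in mesoderm and neural tissue. When epiblast cells pass through the primitive streak they turn into mesenchymal cells, and E-cadherin is then replaced by N-cadherin. Transcription factors of the SNAI and ZEB families repress CDH1 and other epithelial genes, and T-box factors and MESP1 act in the streak and in the mesoderm that leaves it.

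The cadherins themselves chose the cells, so their levels are given only as a description. CDH1 stood at 174 CPM (the UMIs of a gene in the summed class, scaled to a class total of 1000000) in CDH1-only cells, with a median of 2 UMIs per cell and a highest of 8. CDH2 stood at 294 CPM in CDH2-only cells, with a median of 4 UMIs and a highest of 24. Cells at the threshold made up 51.6% of the CDH1-only class and 29.0% of the CDH2-only class, each with exactly 2 UMIs. Across the threshold the mesoderm factor MESP1 stood at 16.7 CPM in the 302 cells with 2 CDH1 UMIs and at 18.0 CPM in the 522 cells with 1, all without CDH2. On the other side it stood at 78.0 CPM in the 341 cells with 2 CDH2 UMIs and at 46.7 CPM in the 496 cells with 1, all without CDH1. Most kept cells were in neither class, among them 2056 cells (26.1%) with at least 2 UMIs of both cadherins and 632 (8.01%) with 0 of both.

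The classes were of like depth and quality. The median was 16042 UMIs and 4978 genes per CDH1-only cell and 14803 UMIs and 4764 genes per CDH2-only cell, and mitochondrial transcripts took a median of 4.30% and 3.85% of UMIs. The summed classes held 9774804 and 17716447 UMIs. Of the proliferation lists, 15 S phase and 15 G2/M genes, 0 differed by 1.5 times, and the same was true of 14 hypoxia and glycolysis genes, 10 dissociation stress genes and 10 p53 targets. Of 10 integrated stress response genes 1 was higher in CDH1-only cells, DDIT4 at 15.04 and 9.14 CPM. Several defining markers of cell types that the culture could also hold were at or near 0 UMIs in both classes. SOX1, GCM1 and TAL1, which mark neural, trophoblast and blood-forming cells, were at 0 UMIs in both, and the 10 trophoblast genes summed to 37.3 CPM in CDH1-only and 28.5 CPM in CDH2-only cells, with 4 of them at 0 UMIs in both. The neural marker PAX6 had 4 and 1 UMIs, the endothelial marker PECAM1 2 and 2, and the amnion marker VTCN1 2 and 4. Other amnion markers were not near 0: TFAP2A had 162 and 223 UMIs, GATA3 179 and 326, and ISL1 53 and 144. The 12 neural ectoderm genes summed to 121 and 162 CPM (1 at 0 in both), the 11 hemato-endothelial genes to 71.1 and 69.6 CPM (1 at 0 in both) and the 15 amnion genes to 191 and 213 CPM, and their part in the class differences was not tested. Of the kept barcodes of day 2, 5 also occurred in the day 1 library and 13 in the day 3 library, and 2 of the 1760 cells were among these.

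Large ratios were more frequent on the N-cadherin side. Among 9845 genes that reached 10 CPM in either class, cadherins 1 and 2 left out, 253 (2.57%) were at least 1.5-fold higher in CDH1-only cells and 355 (3.61%) in CDH2-only cells. At a ratio of 2 the counts were 26 and 171, at 5 they were 0 and 51, and at 10 they were 0 and 23. The median log2 ratio of all these genes was 0.0033. The counts at 1.5-fold depended on the rule. They were 425 and 484 with at least 3 UMIs of the cadherin, and 489 and 466 in cells thinned to 5000 UMIs. When the cells with a MESP1 UMI were left out, which kept 526 and 613 cells, 47 genes (0.481%) were higher in CDH1-only and 161 (1.65%) in CDH2-only cells, and 38 and 122 of these were among the 253 and 355. No test was possible with 1 library, and every interval below is a 95% interval that covers counting error only.

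**Figure D1:**
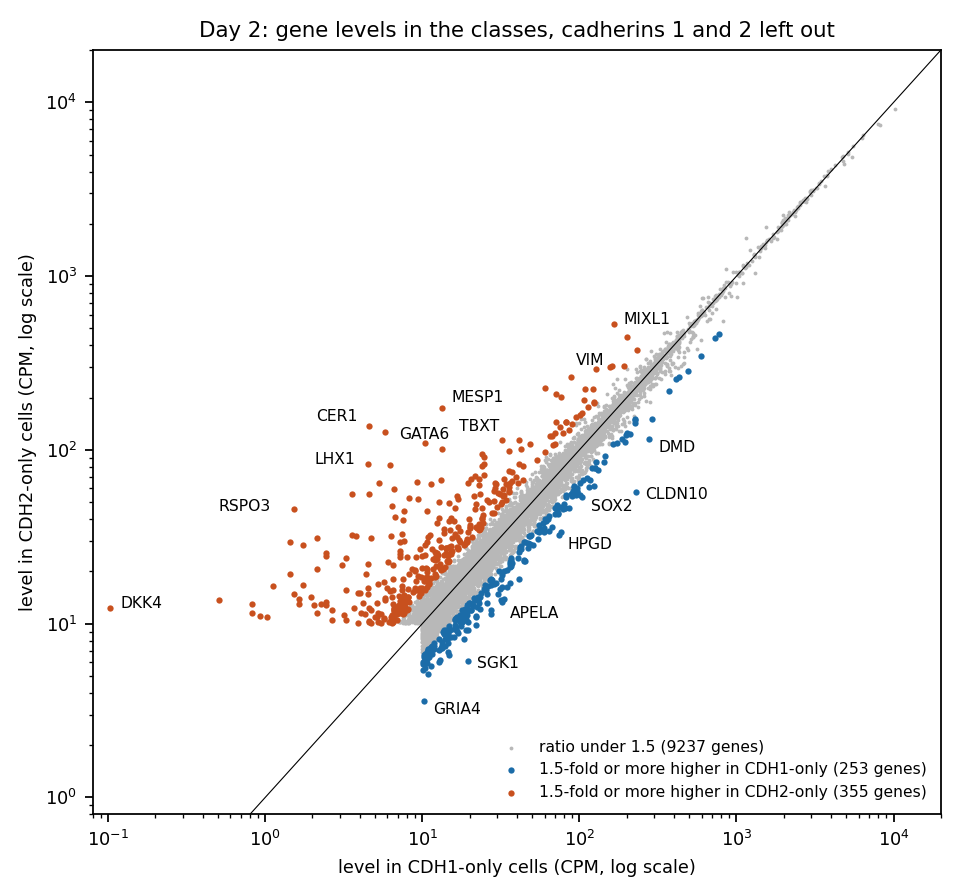
Level of each of 9845 genes in the 585 CDH1-only cells (x axis, CPM, log scale) and the 1175 CDH2-only cells (y axis, CPM, log scale) of day 2; each point is a gene and the line marks equal levels. Of the coloured genes, 253 lie at least 1.5-fold below the line and 355 above it, and the points far from the line, among them CER1, GATA6 and MESP1, are on the CDH2-only side.

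Nascent mesoderm genes were higher in CDH2-only cells as a group. Of 19 measured nascent mesoderm genes (2 CPM or more in either class), 18 were higher in CDH2-only cells and 0 in CDH1-only cells, with a median log2 ratio of 3.07. Over all 14509 genes at that level, 6.46% were higher in CDH2-only and 5.09% in CDH1-only cells, and the median log2 ratio was 0.0009. MESP1 (ENSG00000166823, chr15:89749875-89751249, minus strand), a basic helix-loop-helix factor of early mesoderm, was at 13.4 CPM in CDH1-only and 174 CPM in CDH2-only cells, 13.0-fold apart (10.9 to 15.6). GATA6 (ENSG00000141448, chr18:22169589-22202528, plus strand), a zinc finger factor of mesoderm and endoderm, was at 5.83 and 126 CPM (21.7-fold, 16.7 to 28.7). The paraxial mesoderm factors MSGN1 and TBX6 were at 2.15 and 31.3 CPM and at 1.13 and 16.5 CPM, in each case 14.6-fold higher in CDH2-only cells. LHX1, a LIM homeobox factor, was 18.4-fold higher (4.50 and 82.6 CPM), the forkhead factor FOXC1 13.5-fold, the growth factor receptor PDGFRA 8.41-fold and the NOTCH ligand DLL3 8.91-fold. KDR, the VEGF receptor, was the measured member under the threshold, at 47.3 and 43.2 CPM. HAND1 was 3.90-fold higher (12.8 and 49.8 CPM), but among cells with no MESP1 UMI its log2 ratio was -0.40, so its direction turned. The list's median without those cells was 1.09. Endoderm lists, which share GATA6 with it, moved the same way. They also share members with each other, so their counts are not separate results. Of 7 measured definitive endoderm genes 5 were higher in CDH2-only cells and 0 in CDH1-only cells (median log2 ratio 1.92, and 2.22 without the MESP1 cells). Of 7 hypoblast genes 4 were higher in CDH2-only and 0 in CDH1-only cells (1.13 and 1.45). The hypoblast markers APOA1, at 1.23 and 1.58 CPM, and TTR, with 1 UMI in each class, were under the 2 CPM minimum. Of the definitive endoderm list GATA4 was at 6.34 and 32.1 CPM, PRDM1 at 3.99 and 15.1 CPM and SOX17 at 5.01 and 10.95 CPM, while FOXA2 had 6 and 29 UMIs and FOXA1 0 in both.

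CER1, RSPO3, DKK1, DKK4 and BMP2, which encode secreted signalling regulators, were among the genes with the largest ratios. CER1 (ENSG00000147869, chr9:14719724-14722733, minus strand), an antagonist of NODAL, BMP and WNT ligands, was at 4.60 CPM in CDH1-only and 138 CPM in CDH2-only cells, 29.9-fold apart (22.3 to 41.1). RSPO3, which strengthens WNT signalling, was at 1.53 and 45.7 CPM (29.8-fold, 17.9 to 53.4), and its receptor LGR5 was 16.4-fold higher. The WNT antagonist DKK1 was 12.2-fold higher, at 5.32 and 64.8 CPM, and its relative DKK4 was at 1 UMI against 217 UMIs (120-fold, 21.3 to 4750). BMP2 was at 4.60 and 55.7 CPM, 12.1-fold higher in CDH2-only cells, and its paralogue BMP4 was at 23.8 and 46.5 CPM (1.95-fold). FSHR, the receptor of follicle-stimulating hormone, GRP, a secreted peptide, and LZTS1 were 20.6-fold, 15.9-fold and 13.1-fold higher. With MESP1, GATA6, LHX1, TBX6, MSGN1 and FOXC1, and without BMP4, these had the 15 largest ratios among genes of at least 10 CPM that carry a gene symbol (AC026167.1, AC068051.1 and AC117386.2, loci known by clone names and named here after their values were seen, were 26.8-fold, 15.5-fold and 14.1-fold higher), and each of the 15 was at most 13.4 CPM in CDH1-only cells.

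Primitive streak genes were higher in CDH2-only cells as a group, by smaller ratios. Of 19 measured members, 12 were higher there and 0 in CDH1-only cells, with a median log2 ratio of 1.01, which was 0.46 without the MESP1 cells. MIXL1 (ENSG00000185155, chr1:226223618-226227060, plus strand), a homeobox factor of the streak, was at 167 and 534 CPM (3.20-fold). TBXT (ENSG00000164458, chr6:166157656-166168700, minus strand), the T-box factor brachyury, was at 41.5 and 114 CPM (2.75-fold, 2.47 to 3.07). EOMES was at 70.0 and 126 CPM (1.79-fold), and GSC and FGF17 were 4.88-fold and 9.59-fold higher. NODAL, the ligand that maintains the streak, was at 155 and 158 CPM, and WNT3 at 70.3 and 88.6 CPM, both under the threshold.

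All the EMT factors that passed the threshold were higher with N-cadherin. Of 10 measured EMT transcription factors, 8 were higher in CDH2-only cells and 0 in CDH1-only cells (median log2 ratio 2.58, and 1.34 without the MESP1 cells). ZEB2 was at 2.46 and 25.5 CPM (10.4-fold, 6.89 to 16.4), SNAI1 at 3.27 and 24.0 CPM (7.33-fold, 5.11 to 10.9) and ZEB1 at 1.94 and 14.2 CPM (7.32-fold). SNAI2 and TWIST1 stayed under 10 CPM in both classes and were 8.04-fold and 4.34-fold higher. Of 19 mesenchymal genes, 7 were higher in CDH2-only cells: VIM, CDH11, COL5A1, COL5A2, PDGFRA, ITGA5 and TGFBI. The median log2 ratio of this list was 0.34, and 0.31 without the MESP1 cells. VIM (ENSG00000026025, chr10:17228241-17237593, plus strand), the vimentin filament protein, was at 89.1 and 264 CPM (2.97-fold, 2.76 to 3.19), and the fibrillar collagen genes COL5A1 and COL5A2 were 5.62-fold and 3.41-fold higher. The log2 ratio of VIM was 1.57, and 2.05 without the MESP1 cells. FN1, the fibronectin gene, was at 123 and 125 CPM, SPARC at 107 and 136 CPM and COL1A1 at 33.5 and 31.7 CPM.

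The E-box CACCTG, which reads as CAGGTG on the other strand, the motif that SNAI and ZEB factors bind, was counted in RefSeq promoter windows of GRCh38.p14, 250 bases before to 50 bases after each transcription start. It was present in 20.6% of all 35116 windows, in 25.6% of the 324 windows of 182 genes matched among the 253 higher in CDH1-only cells, and in 17.2% of the 401 windows of 241 genes matched among the 355 higher in CDH2-only cells. In genes tested and called in neither direction it was in 16.8% of 10853 windows. The T-box core ACACCT, which reads as AGGTGT on the other strand, overlaps the E-box where an A precedes it, and was in 11.4% of all windows, 13.6% of the CDH1-only and 11.2% of the CDH2-only windows, and 8.55% of the windows of genes called in neither direction. Windows holding the E-box from each side are printed because genes of both classes carried it: HPGD and FREM2 were higher with E-cadherin in all 3 libraries, and CER1 and MSGN1 were among the largest ratios with N-cadherin. Capitals mark the E-box, each sequence runs 5' to 3' on the gene's strand, and in MSGN1 the E-box shares 5 bases with a T-box core. The table's other window for HPGD holds no E-box. A match is a description of these letters and no evidence of binding.
HPGD, chr4:174522439-174522738, minus strand: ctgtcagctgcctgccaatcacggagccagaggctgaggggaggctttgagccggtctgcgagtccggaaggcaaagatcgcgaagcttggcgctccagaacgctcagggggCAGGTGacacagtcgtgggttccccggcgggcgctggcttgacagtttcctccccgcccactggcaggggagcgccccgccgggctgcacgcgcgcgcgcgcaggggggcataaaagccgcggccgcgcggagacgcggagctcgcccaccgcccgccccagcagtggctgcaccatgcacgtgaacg
FREM2, chr13:38686827-38687126, plus strand: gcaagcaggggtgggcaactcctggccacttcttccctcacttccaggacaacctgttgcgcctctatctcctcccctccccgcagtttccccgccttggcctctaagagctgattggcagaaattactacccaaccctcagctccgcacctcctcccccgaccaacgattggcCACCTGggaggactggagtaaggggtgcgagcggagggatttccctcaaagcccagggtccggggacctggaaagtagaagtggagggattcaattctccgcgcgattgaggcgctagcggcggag
CER1, chr9:14722684-14722983, minus strand: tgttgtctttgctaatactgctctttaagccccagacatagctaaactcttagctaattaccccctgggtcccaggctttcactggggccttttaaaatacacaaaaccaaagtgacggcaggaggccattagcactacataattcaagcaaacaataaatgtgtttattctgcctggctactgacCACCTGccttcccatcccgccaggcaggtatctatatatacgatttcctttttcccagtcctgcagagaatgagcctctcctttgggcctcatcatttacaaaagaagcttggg
MSGN1, chr2:17816210-17816509, plus strand: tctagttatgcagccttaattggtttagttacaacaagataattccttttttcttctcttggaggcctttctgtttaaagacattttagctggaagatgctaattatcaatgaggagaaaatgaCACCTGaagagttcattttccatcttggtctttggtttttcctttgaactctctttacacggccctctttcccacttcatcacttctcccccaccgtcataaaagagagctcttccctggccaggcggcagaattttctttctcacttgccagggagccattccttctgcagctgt

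Some epithelial genes were higher in CDH1-only cells at day 2. Of 36 junction and polarity genes, 8 were at least 1.5-fold higher in CDH1-only cells, where 5.09% of all genes at that level were, and 0 in CDH2-only cells, and the median log2 ratio was -0.34. CLDN10 (ENSG00000134873, chr13:95433604-95579759, plus strand), a claudin of tight junctions, had the largest ratio, at 229 and 57.1 CPM (4.02-fold, 3.73 to 4.33). CLDN4, MARVELD3 and CGN, all tight junction components, were 2.13-fold, 1.69-fold and 1.67-fold higher, and CLDN3, TJP3 and ST14 passed at under 10 CPM. EPCAM, an epithelial adhesion molecule, was at 193 and 142 CPM (1.36-fold), TJP1 at 163 and 151 CPM, the desmosome gene DSP at 81.3 and 82.5 CPM and keratin 8 (KRT8) at 407 and 405 CPM. Of 8 epithelial regulators 5 were higher in CDH1-only cells, among them the grainyhead factor GRHL2 at 96.1 and 57.1 CPM (1.68-fold) and the splicing regulator ESRP1 at 128 and 85.1 CPM (1.51-fold). Their median log2 ratio was -0.65, and -0.37 without the MESP1 cells.

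Other adhesion genes split by member. Of 12 other cadherins 5 were higher in CDH2-only cells: CDH11 at 24.9 and 83.3 CPM (3.35-fold), CDH20 at 7.26 and 26.4 CPM (3.63-fold), CDH18, CDH10 and CDH24. P-cadherin, CDH3, leaned the other way at 52.8 and 37.0 CPM, under the threshold. Of 9 protocadherins 5 were higher in CDH2-only cells, with PCDH19 at 3.95-fold and PCDH7 at 2.92-fold (24.6 and 71.7 CPM), and 1, PCDH1, in CDH1-only cells (23.2 and 14.2 CPM). The median log2 ratio of the protocadherins was 0.66, and 0.32, under 1.5-fold, without the MESP1 cells. The 7 catenins, which tie cadherins to the cytoskeleton, passed in neither direction, and beta-catenin, CTNNB1, was at 110 and 117 CPM. Among 11 integrins, ITGA5 and ITGA9 were 2.89-fold and 2.40-fold higher in CDH2-only cells, and ITGA6, a laminin receptor subunit, was 1.56-fold higher in CDH1-only cells at 61.6 and 39.5 CPM.

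Core pluripotency genes leaned toward CDH1-only cells. Of 18 members 6 were higher there and 0 in CDH2-only cells (median log2 ratio -0.42). SOX2 (ENSG00000181449, chr3:181711925-181714436, plus strand) was at 104 and 53.4 CPM (1.95-fold), the sialomucin PODXL at 289 and 150 CPM (1.93-fold), the telomere-binding gene TERF1 at 494 and 286 CPM (1.73-fold) and NANOG at 64.0 and 41.8 CPM (1.53-fold). USP44 and FOXD3 were the others. POU5F1 was 1.21-fold apart, under the threshold. Without the MESP1 cells the list's median was -0.12 and the log2 ratio of SOX2 was -0.32 and of NANOG -0.09, so neither gene reached 1.5-fold among cells with no MESP1 UMI.

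Signalling genes split between pathways. Of 12 WNT response genes 6 were higher in CDH2-only cells, LEF1 at 35.9 and 61.2 CPM (1.70-fold), NKD1 at 21.8 and 70.3 CPM (3.23-fold), LGR5, DKK1, TNFRSF19 and APCDD1. The list's median log2 ratio was 0.64, and 0.37 without the MESP1 cells, where LEF1 was also at 0.37. The feedback gene AXIN2 was at 20.6 and 20.3 CPM, and RNF43, an inhibitor that removes WNT receptors, was 1.59-fold higher in CDH1-only cells. Of 12 BMP response genes 2 were higher in CDH2-only cells, MSX1 at 16.8 and 52.4 CPM (3.12-fold) and SMAD6 at 22.1 and 35.8 CPM (1.62-fold). The direct BMP targets ID1, ID2, ID3 and ID4 were under the threshold, and ID1 was at 495 and 378 CPM. Amnion genes had no common direction, with 4 of 12 higher in CDH1-only and 2 in CDH2-only cells, and TFAP2A, a factor of amnion and surface ectoderm, was at 16.6 and 12.6 CPM. HPGD, a member of this list, was among the 4, at 2.30-fold. In the FGF-ERK list 1 of 12 genes passed, IER3 at 108 and 223 CPM.

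The genes highest in CDH1-only cells were mixed in kind. After CLDN10 came SGK1, a kinase, at 19.4 and 6.10 CPM (3.19-fold), the glutamate receptor subunit GRIA4 at 10.2 and 3.61 CPM (2.83-fold), the protease ADAMTS16 at 32.2 and 13.3 CPM (2.42-fold) and DMD, the dystrophin gene, at 279 and 116 CPM (2.40-fold). CXCL12, a chemokine, was at 27.2 and 11.3 CPM (2.40-fold), and HPGD (ENSG00000164120, chr4:174490175-174523154, minus strand), which degrades prostaglandins, at 74.3 and 32.2 CPM (2.30-fold). APELA, a peptide ligand, was at 31.6 and 13.6 CPM (2.32-fold), while its receptor APLNR was at 6.75 and 41.1 CPM, 6.09-fold higher in CDH2-only cells. SYNPO2, IQSEC2, SLCO4C1, RMST, SHC3, BCAM and CLDN4 completed the 15 with ratios from 2.31 down to 2.13.

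A few cells held much of some of these transcripts. In the CDH1-only class the richest 30 cells (5%) held 64.1% of CLDN10 UMIs, 60.3% of DMD UMIs and 47.1% of HPGD UMIs, with up to 136 CLDN10 UMIs in a cell. In the CDH2-only class the richest 59 cells held 61.1% of CER1 UMIs, 45.3% of VIM UMIs and 86.6% of DKK4 UMIs, but 28.4% of MESP1 and 28.9% of GATA6 UMIs. Class levels of the former genes therefore rest on a small part of the cells, and those of MESP1 and GATA6 on many.

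Shares of cells with a UMI give the contrast per cell. After each cell was thinned to 5000 UMIs, which kept 552 CDH1-only and 1104 CDH2-only cells and left out 33 and 71, MESP1 was detected in 4.53% (2.95 to 6.61) and 35.3% (32.5 to 38.2) of them, against 10.1% and 47.8% without thinning. GATA6 was in 2.36% and 34.3% (5.47% and 46.6% unthinned) and CER1 in 2.17% and 19.8% (5.64% and 28.3%). For reference, these 3 genes were in 1.18%, 1.28% and 1.77% of 1015 thinned cells with at least 2 SOX2 UMIs and no TBXT or MIXL1 UMI. The median depth of those cells was 16956 UMIs. In unthinned CDH2-only cells MIXL1 was in 529 of 562 cells with MESP1, 517 of 547 with GATA6 and 310 of 332 with CER1. Choosing cells without MIXL1 therefore favours low shares of these 3 genes, and the reference shares are no background level. TBXT was in 15.4% and 36.8% (34.0% and 59.3%), MIXL1 in 39.9% and 69.7% (54.5% and 78.0%), and SOX2 in 33.3% and 16.9% (57.4% and 31.9%). Those reference cells were chosen by SOX2, TBXT and MIXL1 and give no background for these genes, so the lower share in each case is not read as expression. EPCAM was in 60.9% and 46.9% (84.6% and 75.1%), and VIM in 26.3% and 40.1% (47.4% and 58.6%). VIM was also in 45.1% of the thinned SOX2 cells without TBXT or MIXL1, above both classes, so its share is not read as expression or as a difference. For most of the 10 genes plotted the 483 thinned cells with neither cadherin, which were shallower before thinning (median 10309 UMIs), lay near the CDH1-only value, as with SOX2 in 32.9% and TBXT in 15.5%.

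**Figure D2:**
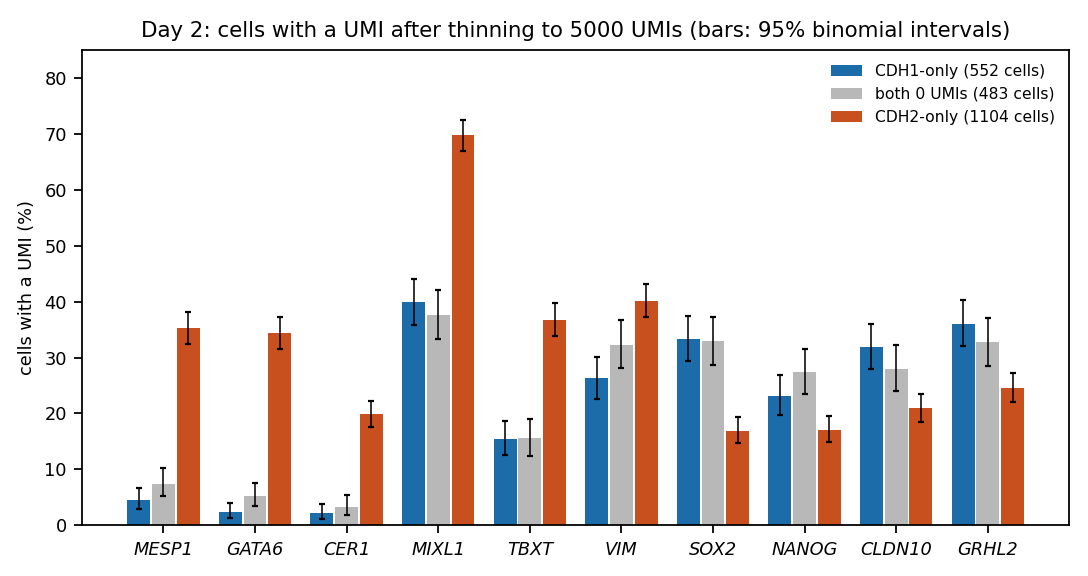
Share of day 2 cells with a UMI of each gene after thinning to 5000 UMIs per cell (y axis, %); bars show 552 CDH1-only, 483 double-zero and 1104 CDH2-only cells, with 95% binomial intervals. MESP1, GATA6 and CER1 stand at 35.3%, 34.3% and 19.8% in CDH2-only cells and at most 7.45% in the other groups.

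Mesoderm transcripts occurred together within CDH2-only cells. Of the 547 cells with a GATA6 UMI, 433 (79.2%) also had MESP1. MESP1 was also present in 211 of 224 cells (94.2%) with MSGN1, 166 of 190 with TBX6, 279 of 342 with LHX1 and 233 of 287 with SNAI1. The product of the 2 genes' shares in the class gave 262, 107, 90.9, 164 and 137 cells in the same order. SOX2 was in 16.4% of CDH2-only cells with MESP1 and in 46.2% of those without. SOX17, an endoderm and germ cell factor, was in 45 CDH2-only cells. Of these 25 had MESP1, 34 had GATA6, 23 had TBXT, 4 had SNAI1, 4 had ZEB2 and 9 had FOXA2. FOXA2 was in 18 cells of the class in all. Cells differ in depth, and its part in these shares was not tested.

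Levels of MESP1, CER1 and TBXT were higher with each step from 1 CDH2 UMI upward, while TBXT and EPCAM hardly differed along CDH1 UMIs. Among cells without CDH1, MESP1 stood at 21.8, 46.7, 78.0, 153 and 226 CPM in cells with 0, 1, 2, 3 and at least 4 CDH2 UMIs. CER1 stood at 11.2, 32.7, 68.4 and 211 CPM in cells with 1, 2, 3 and at least 4, and TBXT from 0 upward at 39.7, 50.4, 72.7, 105 and 137 CPM. SOX2 went from 99.3 CPM at 0 to 40.8 CPM at 4 or more, and EPCAM from 180 to 122 CPM. Among cells without CDH2, TBXT stood between 39.7 and 43.4 CPM and EPCAM between 180 and 209 CPM at every number of CDH1 UMIs. VIM went from 148 to 62.2 CPM, MESP1 from 21.8 to 6.69 CPM and CLDN10 from 94.8 to 382 CPM as CDH1 UMIs went from 0 to 4 or more. Median depth also went up along both series, from 10309 UMIs per cell at 0 to 19759.5 at 4 or more CDH1 UMIs and to 16057 at 4 or more CDH2 UMIs, and the part of depth in these levels was not tested.

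**Figure D3:**
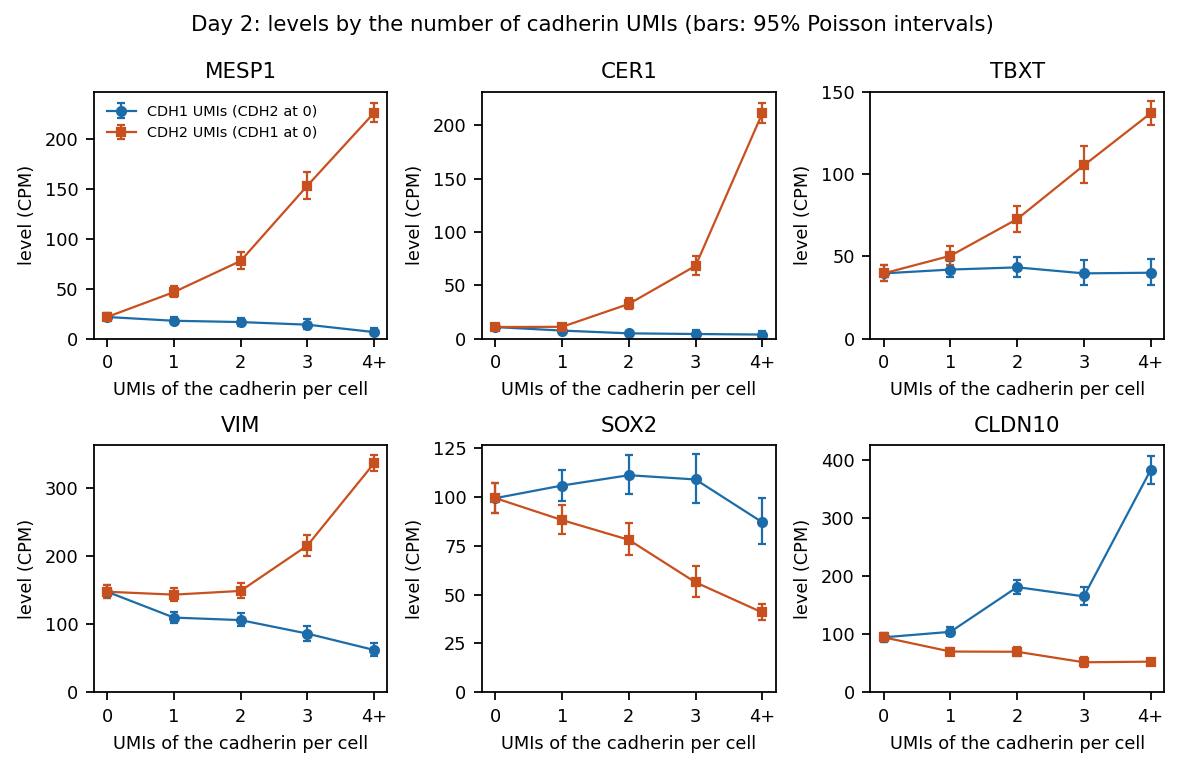
Level of 6 genes (y axis, CPM) in day 2 cells grouped by UMIs of a cadherin per cell (x axis; 4+ is 4 or more), for CDH1 UMIs in cells without CDH2 (blue) and CDH2 UMIs in cells without CDH1 (orange), with 95% Poisson intervals. MESP1, CER1 and TBXT climb with CDH2 UMIs, to 226, 211 and 137 CPM, while TBXT stays between 39.7 and 43.4 CPM along CDH1.

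Set against the 632 cells with 0 UMIs of both cadherins, the CDH1-only class differed in fewer genes than the CDH2-only class did. Of 9714 genes, 50 (0.515%) were at least 1.5-fold higher and 35 (0.36%) lower in CDH1-only cells. In CDH2-only cells 429 (4.36%) were higher and 239 (2.43%) lower, of 9837 genes. The 2 comparisons share the double-zero cells, so they are given side by side only. SOX2 in CDH1-only cells was 1.05 times its level in double-zero cells, TBXT 1.05, EPCAM 1.08 and GRHL2 1.08 times, while CLDN10, SGK1 and HPGD were 2.42, 2.73 and 2.10 times as high, CER1 0.419 times and VIM 0.604 times. By list, 8 of 17 nascent mesoderm genes were lower and 1 higher in CDH1-only than in double-zero cells, 5 of 9 EMT factors were lower and 0 higher, and 7 of 12 amnion genes were higher and 0 lower (median log2 ratio 0.74). Over all genes of at least 2 CPM, 3.81% were lower and 3.37% higher. The amnion difference was not particular to this class. In CDH2-only cells 4 of 10 amnion genes were higher than in double-zero cells and 0 lower (median log2 ratio 0.44). In cells with at least 2 UMIs of both cadherins 7 of 10 were higher and 0 lower (0.67). Higher streak, mesoderm and EMT genes were not limited to cells without CDH1 UMIs. In the cells with both, 14 of 19 streak genes were higher and 0 lower (1.06), against 14 and 0 in CDH2-only cells (1.22). For nascent mesoderm it was 15 of 18 and 1 (1.22), against 16 of 19 and 0 (2.63). For EMT factors it was 5 of 10 and 0 (0.63), against 8 of 10 and 0 (1.98). Of 9737 genes of at least 10 CPM, 182 were higher and 45 lower in the cells with both. In CDH2-only cells MESP1 was 7.98 times, CER1 12.5 times, SOX2 0.538 times and CLDN10 0.602 times the double-zero level. Double-zero cells were shallower, and a missing cadherin UMI in them can be a missed transcript.

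The classes also differed in make-up by streak and mesoderm markers. MESP1 was detected in 59 CDH1-only cells (10.1%) and 562 CDH2-only cells (47.8%), another streak marker (TBXT, MIXL1 or EOMES) without MESP1 in 377 (64.4%) and 467 (39.7%), and none of the 4 in 149 (25.5%) and 146 (12.4%). Within the middle group 65 of 9755 genes (0.666%) were higher in CDH1-only and 175 (1.79%) in CDH2-only cells. There GATA6 was at 2.07 and 36.5 CPM (17.6-fold), CER1 at 4.14 and 49.1 CPM (11.9-fold), VIM at 87.5 and 268 CPM (3.06-fold), MIXL1 at 180 and 392 CPM and SOX2 at 97.2 and 66.6 CPM. In cells with none of the 4 markers VIM was at 79.6 and 687 CPM (8.63-fold, 7.27 to 10.3), ZEB2 at 1.62 and 20.3 CPM and CLDN10 at 268 and 60.4 CPM, while SOX2 was at 163 and 173 CPM. In these cells 477 of 10097 genes (4.72%) were higher in CDH1-only and 597 (5.91%) in CDH2-only cells, and the sums rest on fewer cells.

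The 59 CDH1-only cells with MESP1 differed in the levels of several transcripts from the 562 CDH2-only cells with it. Streak transcripts were shared: MIXL1 was in 44 (74.6%) and 529 (94.1%) of them and TBXT in 40 (67.8%) and 456 (81.1%). GATA6 was in 14 (23.7%) and 433 (77.0%). MESP1 itself was at 112 and 339 CPM, 3.04-fold higher in CDH2-only cells. CER1 was at 12.8 and 229 CPM (17.9-fold), SNAI1 at 4.27 and 40.7 CPM and GATA6 at 32.4 and 217 CPM (6.69-fold). The germ cell and endoderm factor SOX17 was at 29.9 and 11.8 CPM, 2.53-fold higher in CDH1-only cells (1.68 to 3.74), and TFAP2C, a factor of germ cells and amnion, at 22.2 and 5.18 CPM (4.28-fold, 2.55 to 7.06). PRDM1 was at 19.6 and 10.9 CPM, the germ cell marker NANOS3 had 2 and 18 UMIs (1.71 and 1.98 CPM), and FOXA2 0 and 8. In the group with another streak marker and no MESP1, SOX17 and PRDM1 went the other way, at 2.07 and 11.4 CPM and at 1.78 and 19.2 CPM. SOX17 was present in 11 of these 59 cells, and in 21 of the 585. CLDN10 was at 456 and 46.8 CPM (9.75-fold). Of 9926 genes 683 (6.88%) were higher in CDH1-only and 1131 (11.4%) in CDH2-only cells here, with few cells in the smaller sum.

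Libraries of the other days were made from other cells and allow the same classes to be formed. At day 1 there were 234 CDH1-only and 245 CDH2-only cells (medians 32772.5 and 31206 UMIs), and 385 genes (4.25%) were higher in CDH1-only and 105 (1.16%) in CDH2-only cells, of 9062. At day 3 there were 87 and 4611 cells (18264 and 19136 UMIs), and 1781 (17.4%) and 1518 (14.8%) genes of 10241. The day 1 classes were small parts of that library, 6.36% and 6.66% of its 3677 kept cells. Another 1900 day 1 cells (51.7%) had at least 2 UMIs of both cadherins and were deeper, with a median of 57448.5 UMIs. The day 1 values below therefore leave out most cells of that day. Of the 253 genes of day 2 CDH1-only cells, 184 were measured at day 3 and 162 (88.0%) were higher in the same class, against 29 of 213 (13.6%) at day 1. These were 9.10% of the 1781 and 7.53% of the 385 genes called in that class at days 3 and 1. Of the 355 genes of CDH2-only cells, 247 of 334 (74.0%) were higher in that class at day 3, but 10 of 139 (7.19%) at day 1, where 41 (29.5%) were higher in CDH1-only cells. The 247 and the 10 were 16.3% and 9.52% of the genes called in that class on those days. A group of 30 genes was opposite at day 1 and the same at day 3.

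Streak and WNT genes were among those that turned direction between days 1 and 2. MIXL1 was at 25.7 CPM in CDH1-only and 11.9 CPM in CDH2-only cells at day 1, at 167 and 534 CPM at day 2, and at 58.7 and 338 CPM at day 3. EOMES was at 24.0 and 10.5 CPM, 70.0 and 126 CPM, and 26.8 and 133 CPM in the same order. LEF1, a nuclear effector of WNT signalling, was at 17.4 and 3.51 CPM, 35.9 and 61.2 CPM, and 30.6 and 121 CPM. At day 1 the CDH1-only cells had the higher level of all 3, and at days 2 and 3 the CDH2-only cells did. NKD1, a WNT feedback inhibitor, HAS2, a hyaluronan synthase, EVX1 and PCDH7 had the same pattern, with CDH2-only over CDH1-only ratios of 0.376, 0.330, 0.243 and 0.487 at day 1 and 3.23, 2.62, 1.94 and 2.92 at day 2. At day 1, 8 of 12 streak genes and 8 of 9 WNT response genes were higher in CDH1-only cells and 0 in CDH2-only cells, where 9.67% and 3.28% of all genes at that level were. Medians of the lists at day 1 were -1.15 and -1.39. Amnion genes moved the same way at day 1, with 9 of 11 higher in CDH1-only and 1 in CDH2-only cells (median -1.33, summed level 195 and 80.8 CPM), as did 7 of 12 BMP response genes (median -0.67), and their part in the turn was not tested. Among day 2 cells with no MESP1 UMI, EOMES, LEF1, EVX1, HAS2 and SMAD6 were under 1.5-fold, with log2 ratios of 0.49, 0.37, 0.35, 0.31 and 0.33.

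**Figure D4:**
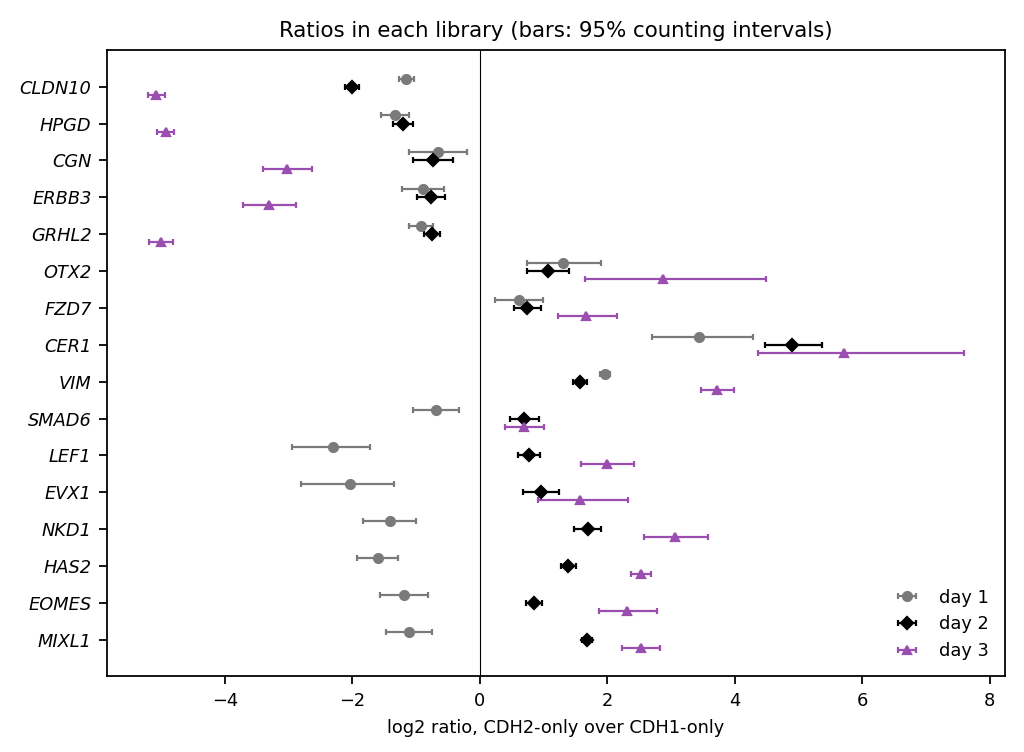
Log2 ratio of CDH2-only over CDH1-only levels (x axis) for 16 genes (y axis) at days 1, 2 and 3, with 95% counting intervals. CLDN10, HPGD, CGN, ERBB3 and GRHL2 lie left of 0 on all 3 days, CER1, VIM, OTX2 and FZD7 right of it, and SMAD6, LEF1, EVX1, NKD1, HAS2, EOMES and MIXL1 lie left at day 1 and right at days 2 and 3.

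A small set kept its direction in all 3 libraries. On the CDH2-only side 6 of 139 genes measured on all days were at least 1.5-fold higher each time: CER1 (10.8-fold, 29.9-fold and 52.7-fold at days 1, 2 and 3), VIM (3.91-fold, 2.97-fold and 13.2-fold), PLK2, OTX2, FZD7 and AC010198.2. VIM stood at 202 and 788 CPM at day 1 and at 77.4 and 1020 CPM at day 3. On the CDH1-only side 24 of 165 genes did so. They included CLDN10 (2.23-fold, 4.02-fold and 33.7-fold), HPGD (2.51-fold, 2.30-fold and 30.5-fold), DMD (3.31-fold, 2.40-fold and 13.0-fold), GRHL2 (1.89-fold, 1.68-fold and 32.2-fold), the receptor ERBB3 (1.85-fold, 1.70-fold and 9.90-fold) and FREM2 (1.75-fold, 1.73-fold and 27.6-fold). Without the MESP1 cells GRHL2, ERBB3 and FREM2 were under 1.5-fold at day 2, with log2 ratios of CDH2-only over CDH1-only of -0.37, -0.41 and -0.24, and so were OTX2 and FZD7 at 0.42 and 0.47. CLDN10 stood at 241 and 108 CPM at day 1 and at 429 and 12.7 CPM at day 3. PLK2 was at 10.3 and 26.5 CPM, 12.1 and 26.0 CPM, and 9.36 and 36.5 CPM on the 3 days.

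At day 3 the epithelial contrast was of another order. Of 36 junction and polarity genes 35 were higher in CDH1-only cells (23.5% of all genes at that level were), with a median log2 ratio of -2.61 against -0.34 at day 2. EPCAM was at 502 and 28.5 CPM at day 3 and at 178 and 175 CPM at day 1. The 87 CDH1-only cells of day 3 also carried amnion genes, 12 of 15 higher with a median log2 ratio of -4.42. Surface ectoderm genes, 7 of 7 measured (median -4.42), and trophoblast genes, 4 of 4 measured (median -5.10, summed level 308 and 59.8 CPM), were higher there too, and the lists share members. TFAP2A was at 117 and 2.88 CPM, the growth factor binding gene IGFBP3 at 315 and 0.643 CPM, KRT7, of the surface ectoderm and trophoblast lists, at 69.9 and 0.246 CPM and WNT6 at 100 and 1.45 CPM. At day 2 the same 4 genes were at 16.6 and 12.6, 3.27 and 1.75, 2.97 and 0.621, and 2.97 and 0.847 CPM. Mesoderm genes were higher in CDH2-only cells in 18 of 21 cases at day 3 (18.1% of all genes at that level were), with a median log2 ratio of 3.11, close to the 3.07 of day 2, and EMT factors 2.05. The make-up of the CDH1-only class differed between days, and that cannot be told apart from a change within 1 kind of cell.

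**Figure D5:**
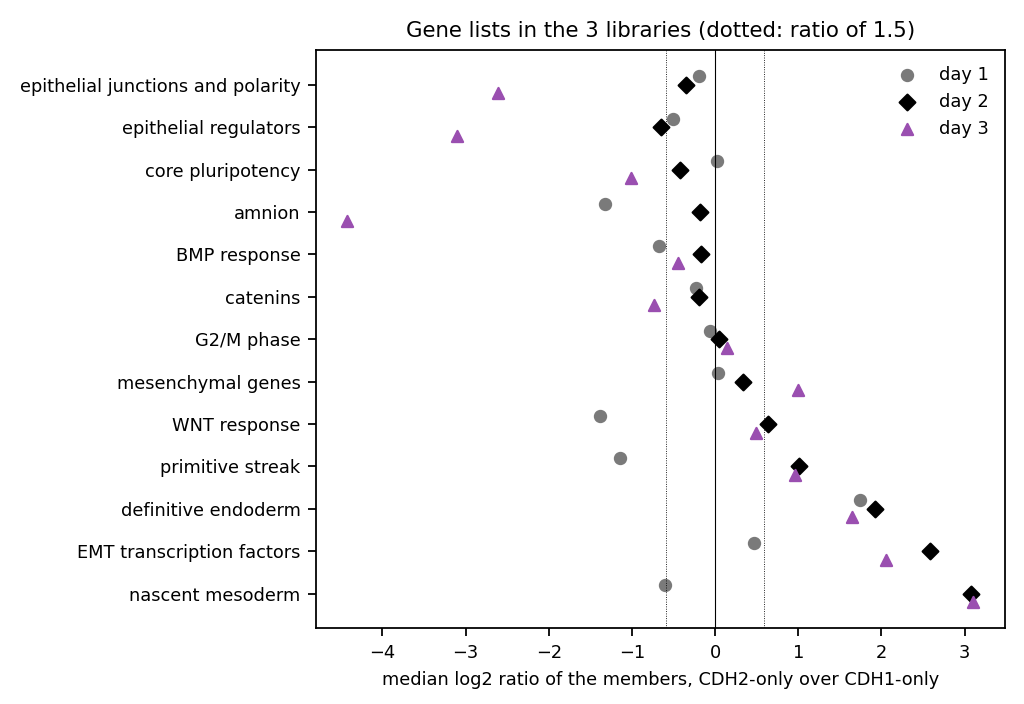
Median log2 ratio of CDH2-only over CDH1-only levels over the measured members of 13 gene lists (x axis; lists on the y axis) at day 1 (circles), day 2 (diamonds) and day 3 (triangles), with dotted lines at a ratio of 1.5. The streak and WNT lists move from -1.15 and -1.39 at day 1 to 1.01 and 0.64 at day 2, while the epithelial junction list goes from -0.34 at day 2 to -2.61 at day 3.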

How the data were processed

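Per the labels' protocols, cells were washed cold to dissolve the overlay, dissociated with trypsin and loaded on the 10x Chromium. The authors deposited UMI counts per gene and barcode, made with Cell Ranger 5.0.1 on hg38, per the submitters' processing notes. Barcodes needed 1000 detected genes and a mitochondrial share of 20% or less, which 3677 of 4889, 7892 of 10580 and 7261 of 7860 met at days 1, 2 and 3 (medians of 42295, 16007.5 and 19576 UMIs). Raw UMIs were summed over the cells of a class and divided by the class total (CPM). Intervals were exact Poisson for a level, conditional binomial for a ratio and Clopper-Pearson for a share. A gene counted as higher at a ratio of 1.5 with at least 10 CPM (lists: 2 CPM) in the higher class. The named genes were the 15 largest ratios on each side among genes of at least 10 CPM in the higher class (without CDH1, CDH2 and loci whose symbol is a clone identifier), the 10 with the largest smallest ratio over the 3 libraries on each side, and members of 34 lists (409 genes). Some members are not reported here by name. The members and lists were chosen with earlier results of these data known. Scrublet (scanpy 1.11.5) at its automatic threshold marked 0 cells, so doublets were kept. The alternative removed the 144, 668 and 457 highest scores. Other alternatives were edgeR 4.0.16 TMM and median-of-ratios scaling, means over cells, cells matched on or thinned to a fixed total, other UMI, CPM and ratio minimums, and a 10% mitochondrial limit. Cells without MESP1, double-zero cells as reference and the share held by the richest cells were added after the data were seen. The ratio calculation was tested on simulated counts. Gene positions are from GENCODE 44 on hg38.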

Additional observations from a re-analysis of the deposited data

Results flagged for a closer look

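Over all genes of at least 10 CPM, 41 of the day 2 CDH2-only genes and 4 of the CDH1-only genes were at least 1.5-fold higher in the other class at day 1. For 9 of the named genes and list members the ratio between the classes pointed one way at day 2 and the other way at day 1, each past 1.5-fold. The difference of the log2 ratios (day 2 minus day 1) was 2.78 for MIXL1, 2.03 for EOMES, 3.00 for EVX1, 3.08 for LEF1, 3.10 for NKD1, 2.99 for HAS2, 1.38 for SMAD6, 2.58 for PCDH7 and 2.13 for ITGA9. The log2 ratios at day 1 lay between -0.68 (SMAD6) and -2.31 (LEF1). LEFTY2, a NODAL antagonist, differed between day 2 and day 3 by 1.77, from 0.62 at day 2 to -1.15 at day 3, and was at 14.4 and 78.0 CPM at day 1, 10.6 and 16.3 CPM at day 2, and 28.7 and 12.9 CPM at day 3 in CDH1-only and CDH2-only cells. With 1 library per day none of these differences was tested.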

How the results depend on the processing

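With 80 named genes and 10 alternatives, 749 of the log2 ratios stayed on their side of 1.5-fold, 39 fell below it, 6 passed it, 1 turned, HAND1 at -0.40 among cells with no MESP1 UMI, which also held 25 of the 39, and 5 had no value because a class had 0 UMIs. Among the 749, CDC42EP1, under 1.5-fold at 0.58, changed sign to -0.09 without the MESP1 cells. The number of genes higher in CDH1-only and in CDH2-only cells (253 and 355) was 47 and 161 without the cells with MESP1, 738 and 938 at a minimum of 2 CPM, 81 and 97 at 50 CPM, 4650 and 6193 with no minimum, and 26 and 171 at a ratio of 2. The CDH1-only count alone moved past 1.5 times in cells thinned to 5000 UMIs (489; 466 for CDH2-only), at 1 UMI of the cadherin (92; 261) and at 3 UMIs (425; 484). The class held 1107 cells at 1 UMI, 283 at 3 UMIs and 318 when cells were thinned before the rule. Of the day 2 CDH1-only genes, the number also higher in that class at day 1, at day 3 and at both (29, 162 and 24) was 107, 257 and 55 in thinned cells, 6, 63 and 6 at 1 UMI, 73, 258 and 53 at 3 UMIs, 9, 22 and 7 without MESP1 cells, 125, 426 and 85 at 2 CPM, 11, 39 and 8 at 50 CPM, 1252, 1350 and 407 with no minimum, and 3, 17 and 3 at a ratio of 2. With the mean over cells the day 1 count was 54 and that for both days 39. Of the CDH2-only genes, the number also higher in that class at day 1, at day 3 and at both, and the number opposite at day 1 (10, 247, 6 and 41), was 55, 562, 28 and 165 at 2 CPM, 1, 73, 1 and 3 at 50 CPM, and 1188, 4312, 818 and 1674 with no minimum. At a ratio of 2, 5 were the same at day 1, 126 at day 3 and 14 were opposite. In thinned cells 28 were the same at day 1, 15 on both days and 72 opposite, at 1 UMI 5, 3 and 21, and at 3 UMIs 18, 14 and 67. Without MESP1 cells 99 were the same at day 3 and 14 opposite at day 1, and with TMM scaling 11 were the same on both days. Of 372 list medians under the alternatives, 24 fell under 1.5-fold. No median past 1.5-fold changed sign, but 33 smaller ones did, 7 of them without the MESP1 cells, such as NODAL response from -0.02 to 0.38. No paired analysis was possible because each day has 1 library and the classes come from the same library. Depth limits the day 3 CDH1-only sum (87 cells) and genes of few UMIs such as DKK4.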
